A study of Arabidopsis thaliana with 32 samples.

Results

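Rubisco activase is encoded in *Arabidopsis thaliana* by the nuclear gene RCA, locus AT2G39730, which was read by the single probe set 245061_at on the ATH1 expression array. RCA was picked by name, with its high level in heated roots already known from these data, and it was 1 gene of 13333 loci with a named probe set. Its signal was followed across all 32 arrays, which made up 16 groups of 2 arrays, namely shoots and roots at 8 times.

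The plants were Col-0, an accession with no transgene or mutation in the labels, and all groups shared the same growth. They stood on Murashige and Skoog medium at 24 °C with 16 h of light a day. On day 16, starting 3 h after lights on, they were heated to 38 °C. Harvests were made in the heat (0.25, 0.5, 1 and 3 h) and, after 3 h of heat, in recovery at 25 °C (1, 3, 9 and 21 h). Plants kept at 24 °C throughout were not analysed here, so each time was set against 21 h of recovery in the same tissue, which was harvested a day after the heat had begun and at that same hour of the light period. The remaining times differed from it both in hour of the day and in treatment, and these cannot be told apart. The labels do not say whether replicate arrays came from separate cultures, so p-values reflect array-to-array spread alone, which may be technical, and 2 arrays a group limit the precision. Each array was made from a whole organ, so more or fewer cells of a type and more or less RNA per cell cannot be told apart.

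Rubisco, the enzyme that fixes CO2 in the Calvin cycle, is blocked when sugar phosphates stay bound in its active sites. Rubisco activase is an ATP-driven chloroplast protein of the AAA+ family that removes them. It is abundant in green leaves, its transcript is known to follow light and the circadian clock, and the protein is sensitive to heat, for which it is known as a weak point of leaf photosynthesis in warm conditions. Alternative splicing of the *Arabidopsis* transcript yields a longer and a shorter form of the protein, and the 1 value per array used here does not separate them.

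Signals are the deposited linear array signal, scaled on each array to a trimmed mean near 100. In shoots, RCA gave 5025 and 4393 on the 2 arrays at 0.25 h of heat, 4532 and 4607 at 0.5 h, 6046 and 4977 at 1 h and lastly 5344 and 5299 at 3 h. During recovery of shoots it gave 3562 and 3562 at 1 h, 3339 and 3409 at 3 h, 4428 and 3512 at 9 h and finally 5192 and 4347 at 21 h. All 16 shoot arrays lay within a narrow band, with both arrays at 3 h of recovery the lowest, followed by 1 array at 9 h and those at 1 h of recovery, and RCA stood among the brightest 68 probe sets on each of them. In roots, RCA gave 82.7 and 103 at 0.25 h of heat, 105 and 94.2 at 0.5 h, 268 and 255 at 1 h and lastly 568 and 617 at 3 h. During recovery of roots it gave 118 and 143 at 1 h, 93.5 and 78.6 at 3 h, 33.5 and 35.3 at 9 h and finally 83.3 and 64.1 at 21 h. The root arrays at 1 and 3 h of heat stood above all the others, those at 9 h of recovery stood below all the others, and no shoot array overlapped any root array.

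**Figure D1:**
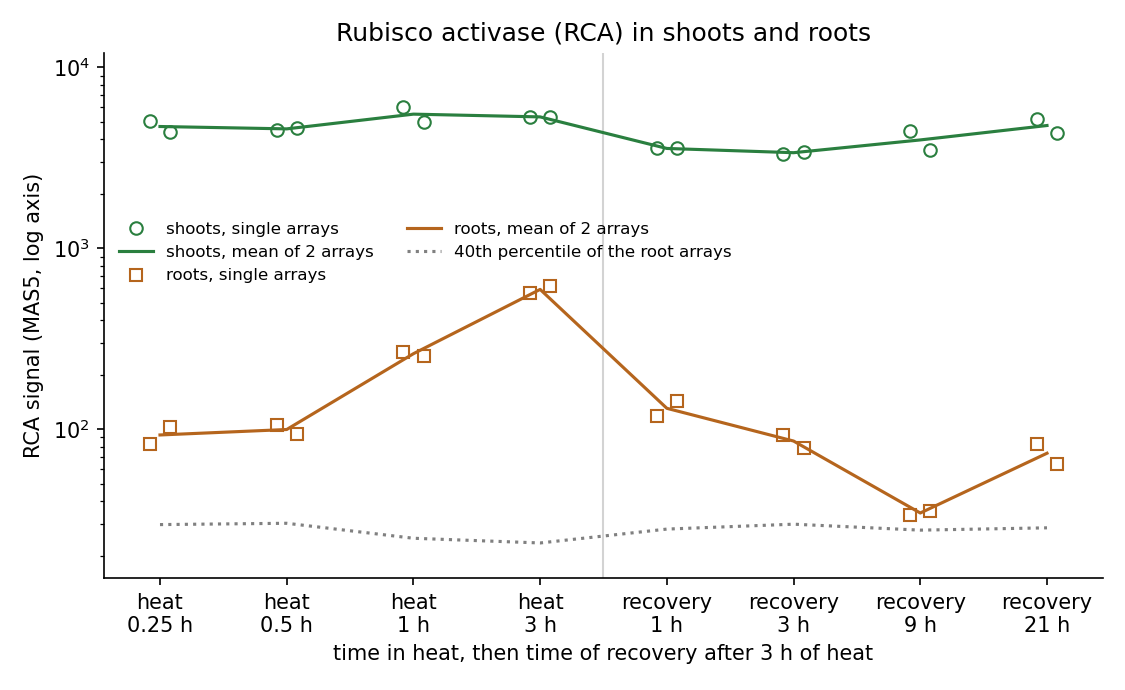
RCA signal (log axis) at 4 times in heat and 4 times of recovery, with open symbols for single arrays and lines through the means of 2 arrays, for shoots (green circles) and roots (brown squares). The dotted line is the 40th percentile of the root arrays, the level below which a probe set counted as dim; the shoot arrays lie between 3339 and 6046, and the root arrays between 33.5 and 617.

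Ranked by mean signal, the shoot groups ran from 1 h of heat (5511 ± 756, SD, n = 2 as for all means given here) through 3 h of heat (5322 ± 31.1), 21 h of recovery (4769 ± 597), 0.25 h of heat (4709 ± 447), 0.5 h of heat (4569 ± 53.2), 9 h of recovery (3970 ± 648) and 1 h of recovery (3562 ± 0.117) to 3 h of recovery (3374 ± 49.3). Within this order the arrays overlapped between 1 and 3 h of heat, between 21 h of recovery and 0.25 h of heat, between 0.25 and 0.5 h of heat, and between 9 and 1 h of recovery, so these neighbours were not separated by their spread. The root groups followed with 3 h of heat (592 ± 34.3), 1 h of heat (261 ± 8.75), 1 h of recovery (130.5 ± 17.1), 0.5 h of heat (99.6 ± 7.70), 0.25 h of heat (92.9 ± 14.5), 3 h of recovery (86.0 ± 10.5), 21 h of recovery (73.7 ± 13.6) and 9 h of recovery (34.4 ± 1.27). Among these, 0.5 h overlapped 0.25 h of heat, 0.25 h of heat overlapped 3 h of recovery, and 3 h overlapped 21 h of recovery. The mean place of RCA on the array, which also depends on how strongly a probe set binds, varied far more in roots, from the 44.2 percentile at 9 h of recovery to the 95.4 percentile at 3 h of heat.

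In roots, mean RCA was slightly above its 21 h recovery level for the first 0.5 h of heat and far above it after 1 and 3 h. The arrays at 0.25 h overlapped those at 21 h of recovery, and both arrays at 0.5 h lay above them. Because the gene was picked with this pattern known, differences that involve heated roots are given with their standard error and without a p-value. Fitted on log2(signal + 10.7), the differences from 21 h of recovery were 0.30, 0.39, 1.70 and 2.85 after 0.25, 0.5, 1 and 3 h of heat, each ± 0.13 (SE). The steps between successive times were 0.10 for 0.5 h over 0.25 h of heat, 1.304 for 1 h over 0.5 h, and 1.15 for 3 h over 1 h. On the linear scale the mean at 3 h of heat was 8.04 times that at 21 h of recovery, 6.38 times that at 0.25 h of heat and 17.2 times that at 9 h of recovery. Among all 16782 probe sets tested, the difference at 3 h of heat ranked 152nd from the top, and 82nd among the 9238 with 1 named gene. The median over all tested probe sets was −0.14 at 1 h and −0.15 at 3 h of heat in roots, so RCA stood further from the bulk than from 0.

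The high root level ended within 1 h of the return to 25 °C for the larger part, and a part remained. RCA at 1 h of recovery differed from 3 h of heat in roots by −2.099 ± 0.13 on the log2 scale, again without a p-value. Against 21 h of recovery it was still higher by 0.75 ± 0.13 (limma, adjusted p = 6.61e-05), with both arrays above both of the 21 h arrays, but short of the difference of 1 that a call required beside an adjusted p below 0.05. At 3 h of recovery the difference was 0.20 (adjusted p = 0.283, 95% interval −0.07 to 0.47).

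A low point followed at 9 h of recovery, late in the light period of the same day, at 15 h after lights on. RCA fell by 1.095 ± 0.13 between 3 and 9 h of recovery in roots (adjusted p = 1.36e-06), where 2.19% of all tested probe sets fell. The fall was −0.98 without replicate 1 of 3 h of recovery and −0.73 with an added constant 4 times larger, both short of a size of 1. Its difference at 9 h from 21 h of recovery was −0.89 ± 0.13 (adjusted p = 3.12e-05), which did not reach a size of 1, although it was −1.06 without replicate 2 of 21 h of recovery. The 2 arrays at 9 h, 33.5 and 35.3, lay just above the 40th percentile of their arrays and below all other root arrays. The step from 1 to 3 h of recovery was −0.54 (adjusted p = 0.00205).

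Several measures that speak to tissue makeup or RNA differed among the same root groups. The summed signal of the 9 green tissue markers that had a named probe set, of 54 listed, was 815 to 976 at 3 h of heat and 541 to 724 at 21 h of recovery in roots, and none of the 9 was at 0. The markers did not move together. Mean LHCB4.2 was 230 against 46.1 at those times and LHCB4.1 was 261 against 166. PSBY (63.3 against 51.2) and rbcL (56.2 against 40.4) were slightly higher. ATPC1 (111 against 121), PSBW (61.2 against 78.5), PSAN and PSAE-1 were lower, and LHCB4.3 was dim. The sum was 825 to 928 already at 0.25 h of heat, where RCA was at 92.9, and 668 to 678 at 1 h of heat, where RCA was at 261. It was 360 to 532 at 9 h of recovery, the lowest of the root groups, as was RCA. In shoots the same sum was 22770 to 38849. The 3 root markers measured, of 15 listed (PYK10, EXPA7 and EXPA18), summed to 1903 to 3805 in roots and 197 to 925 in shoots, so each sum was higher in the tissue of its label. The root sum was mostly PYK10, with a mean of 3107 in roots and 781 in shoots at 21 h of recovery. EXPA7 and EXPA18 averaged 41.2 and 48.0 in roots at that time. At 3 h of heat the root sum was 2626 to 2662 in roots, against 3120 to 3272 at 21 h of recovery. These markers did not move together either. In roots at 3 h of heat PYK10 averaged 2499, EXPA18 48.8 and EXPA7 96.1, which was the highest root mean of EXPA7. Its lowest root mean, 14.6, was at 9 h of recovery. Neither EXPA7 nor EXPA18 exceeded the 40th percentile on the root arrays at 9 h of recovery.

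Control readouts on the array also differed between these groups. The mean 25S ribosomal RNA signal was 3080 in roots at 3 h of heat and 456 at 21 h of recovery. It was as high as 2415 at 0.5 h of heat and 2227 at 3 h of recovery, where RCA averaged 99.6 and 86.0. The actin 3′ to 5′ ratio was 19.4 at 3 h and 20.4 at 1 h of heat in roots, against 12.5 at 21 h of recovery. The GAPDH 3′ to 5′ ratio went the other way, at 1.206 and 1.203 at those times, against 1.41 at 21 h of recovery. In shoots the mean 25S signal was 2405 at 3 h of heat and 104 at 21 h of recovery. The actin ratio in shoots was 13.7 and 5.39 at those times. On the 2 shoot arrays at 9 h of recovery the 25S signal was 1270 and 88.6, where RCA gave 4428 and 3512. At 21 h of recovery it was 108 and 100, where RCA gave 5192 and 4347. The part of these measures in the RCA signal was not tested in either tissue.

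In shoots RCA stayed within a narrow range, and no difference reached a call. Against 21 h of recovery, 0.566%, 1.25%, 3.44% and 7.13% of all tested probe sets rose in shoots after 0.25, 0.5, 1 and 3 h of heat, and 0.232%, 0.572%, 4.14% and 9.15% fell. At 1, 3 and 9 h of recovery 5.72%, 5.69% and 2.98% rose and 4.69%, 4.7% and 2.26% fell. RCA differed from 21 h of recovery by −0.02 (adjusted p = 0.976), −0.06 (0.833), 0.21 (0.222) and 0.16 (0.303) after 0.25, 0.5, 1 and 3 h of heat, each ± 0.13. The 95% intervals at 1 and 3 h of heat were −0.06 to 0.48 and −0.11 to 0.43, so an increase in measured shoot signal as large as that in roots lay outside them. RCA was among the brightest 44 probe sets of each shoot array at these times. Whether so large an increase could still be read at that brightness was not tested. After the return to 25 °C RCA was lower: at 1 h of recovery it stood at −0.58 ± 0.13 relative to 3 h of heat (adjusted p = 0.000635), with 3562 and 3562 against 5344 and 5299. Relative to 21 h of recovery the differences were −0.41 at 1 h (adjusted p = 0.0115), −0.49 at 3 h (0.00346) and −0.27 at 9 h (0.137). These were all under 1 in size, and they were smaller when arrays were quantile normalized: −0.20 for 1 h of recovery over 3 h of heat (adjusted p = 0.170), and −0.22 (0.138) and −0.12 (0.483) for 1 and 3 h over 21 h of recovery. Other steps between successive shoot times had adjusted p-values of 0.137 or more.

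Shoots exceeded roots at every time, by a margin that depended on the time. The log2 difference of shoots over roots was 5.51, 5.38, 4.34 and 3.15 at 0.25, 0.5, 1 and 3 h of heat, each ± 0.13 and without a p-value. During recovery it was 4.67 at 1 h (adjusted p = 2.53e-20), 5.13 at 3 h (4.45e-21), 6.45 at 9 h (5.57e-23) and 5.83 at 21 h (3.09e-22). At these 4 times 14.8%, 15%, 15.6% and 15.6% of tested probe sets were called higher in shoots. In linear signal, shoots had 8.98 times the RCA of roots at 3 h of heat and 115 times at 9 h of recovery. Put the other way, roots held 1.97%, 2.18%, 4.74% and 11.1% of the shoot level through the heat, and 3.66%, 2.55%, 0.867% and 1.54% through recovery.

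The change relative to 21 h of recovery also differed between the tissues after heat had ended. At 1 h of recovery the change in roots exceeded that in shoots by 1.16 ± 0.18 (interaction, adjusted p = 2.46e-05), a call that 5.18% of tested probe sets also received. RCA in roots was above its 21 h level then, while RCA in shoots was below it, in both arrays of each comparison. The interaction was 0.996 without replicate 2 of 21 h of recovery in roots and 0.97 after quantile normalization, both just short of a call. At 3 h of recovery the interaction was 0.69 (adjusted p = 0.00626) and at 9 h it was −0.62 (0.0187), both under 1 in size. During heat, the same quantity was 0.31, 0.45, 1.49 and 2.68 at 0.25, 0.5, 1 and 3 h, given as a description, and the last value ranked 40th of 16782 probe sets. The shoot signals behind it were near the top of the array, where room for a further rise was not tested.

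The 9 green tissue markers give the same tissue ratio for other genes of green cells. At 3 h of heat roots held 11.1% of the shoot level of RCA, against 1.54% at 21 h of recovery. For LHCB4.2, which encodes the CP29 antenna protein of photosystem II, the values were 4.11% at 3 h of heat and 0.905% at 21 h of recovery. The latter rests on root arrays of 63.9 and 28.4, and the lower did not exceed the 40th percentile, so the share and its ratio are imprecise. LHCB4.1, another CP29 gene, had 4.42% at 3 h of heat and 3.06% at 21 h of recovery. LHCB4.3 gave no usable share, since its root signal did not exceed the 40th percentile on both arrays of any root group. The 5 nuclear genes of the photosystems and ATP synthase showed no such gap. PSAE-1 of photosystem I had 0.706% and 0.889%, PSAN of photosystem I had 1.32% and 1.62%, PSBW of photosystem II had 1.47% and 2.09%, PSBY of photosystem II had 1.21% and 1.09%, and ATPC1 of the ATP synthase had 2.93% and 3.22%. The plastid gene rbcL, for the large subunit of Rubisco, had 16.5% at 3 h of heat and 18.1% at 21 h of recovery. The root share of RCA at 3 h of heat was 7.21 times that at 21 h of recovery, which ranked 1st of the 39 genes that were listed and measured, ahead of LHCB4.2 at 4.54 times. As the high RCA level in heated roots was known when the gene was picked, this rank is a description, and the 39 include genes that were dim in roots. The RCA share also rests on shoot signals near the top of the array, whose room to rise was not tested.

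**Figure D2:**
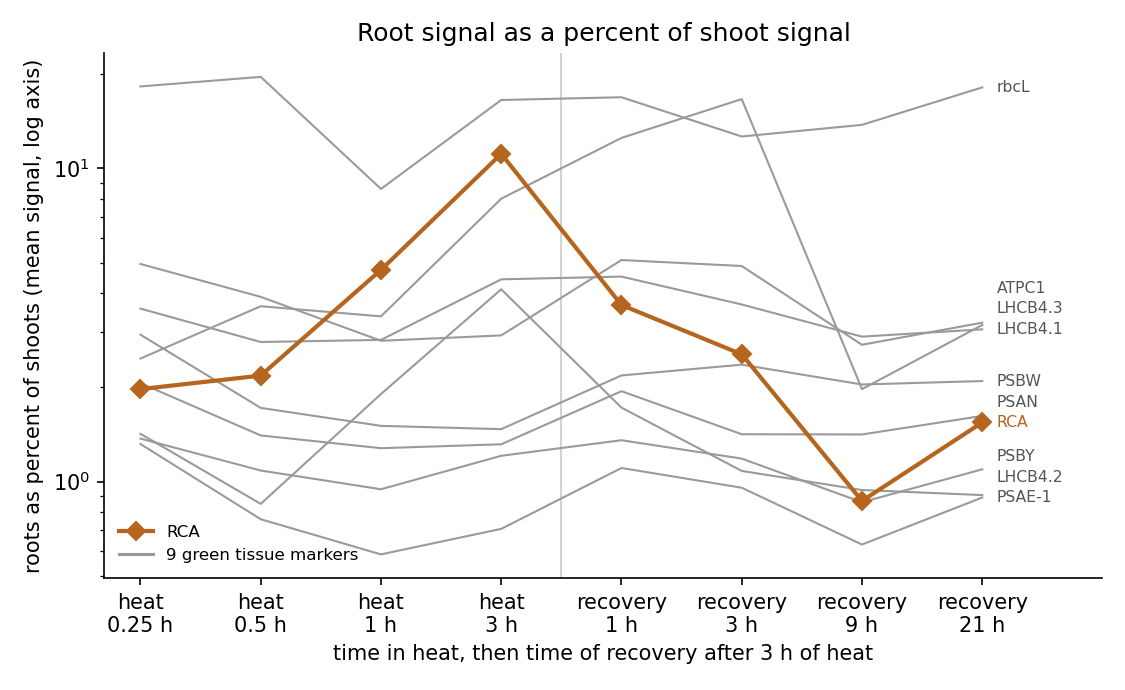
Mean root signal as a percent of mean shoot signal (log axis) at each time, for RCA (brown diamonds) and the 9 green tissue markers (grey lines, named at the right). RCA reaches 11.1% at 3 h of heat and 0.867% at 9 h of recovery, and LHCB4.3 was too dim in roots for its share to be read.

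Other photosynthesis genes were read from 8 lists with 126 genes, of which 33 had a named probe set. In roots 24 of the 33 exceeded the 40th percentile on both arrays of 1 group or more, and the other 9 were tested only because they did so in shoots, so little change could have been seen for them in roots. In roots at 1 h of heat 2 of the 33 rose and 0 fell, where 3.59% of all tested probe sets rose and 2.25% fell. At 3 h of heat 2 rose and 2 fell, where 6.76% rose and 10.2% fell. The 33 include the 9 genes that were dim in roots, and with counts this small no difference from the background is read. The genes that rose were the same at both times. Cpn60beta2, a subunit of the chloroplast chaperonin that folds Rubisco among other proteins, had 2952 and 2736 at 1 h and 3287 and 3226 at 3 h of heat, against 357 and 411 at 21 h of recovery. Its differences were 2.86 ± 0.11 (adjusted p = 7.57e-16) and 3.05 ± 0.11 (9.18e-17), which made it the only one of the 33 above RCA at 3 h.

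LHCB4.2 had 115 and 94.97 at 1 h and 187 and 272 at 3 h of heat in roots, against 63.9 and 28.4 at 21 h of recovery. Its differences were 1.09 ± 0.20 (adjusted p = 0.000112) and 2.13 ± 0.20 (1.61e-09). The 2 arrays at 21 h differ by more than 2 times, and the difference at 1 h was 0.63 without replicate 2 of that group. The 2 genes that fell at 3 h were AT1G80380 of the photorespiration list (−1.65) and AT5G22620 of the list on regulation of Rubisco and activase (−1.40). The other 29 genes passed in neither direction, among them rbcL (0.36) and all 5 nuclear photosystem and electron transport genes. For PRK (phosphoribulokinase) and SBPASE (sedoheptulose bisphosphatase), both of the Calvin cycle and both among the 9 dim genes, the root arrays could not show a fall.

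During root recovery the picture for these genes stayed sparse. At 1 h of recovery 1 of 33 rose and 0 fell in roots (Cpn60beta2, 1.16 ± 0.11), where 2.69% of all probe sets rose and 3.63% fell. At 3 h 1 rose and 0 fell (AT3G04550 of the Rubisco assembly list, 93.2 and 92.2 against 20.9 and 26.1 at 21 h of recovery, where it was not above the 40th percentile), where 1.81% rose and 1.39% fell. At 9 h 0 rose and 1 fell, where 1.12% of all probe sets rose and 0.947% fell. That gene was LHCB4.2, with 18.9 and 13.4 at 9 h, both below the 40th percentile, against 63.9 and 28.4 at 21 h of recovery, of which the lower was below it too. The size of its fall is therefore not given, and its adjusted p was 0.00092 with all arrays and 0.0682 without replicate 1 of 21 h of recovery.

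**Figure D3:**
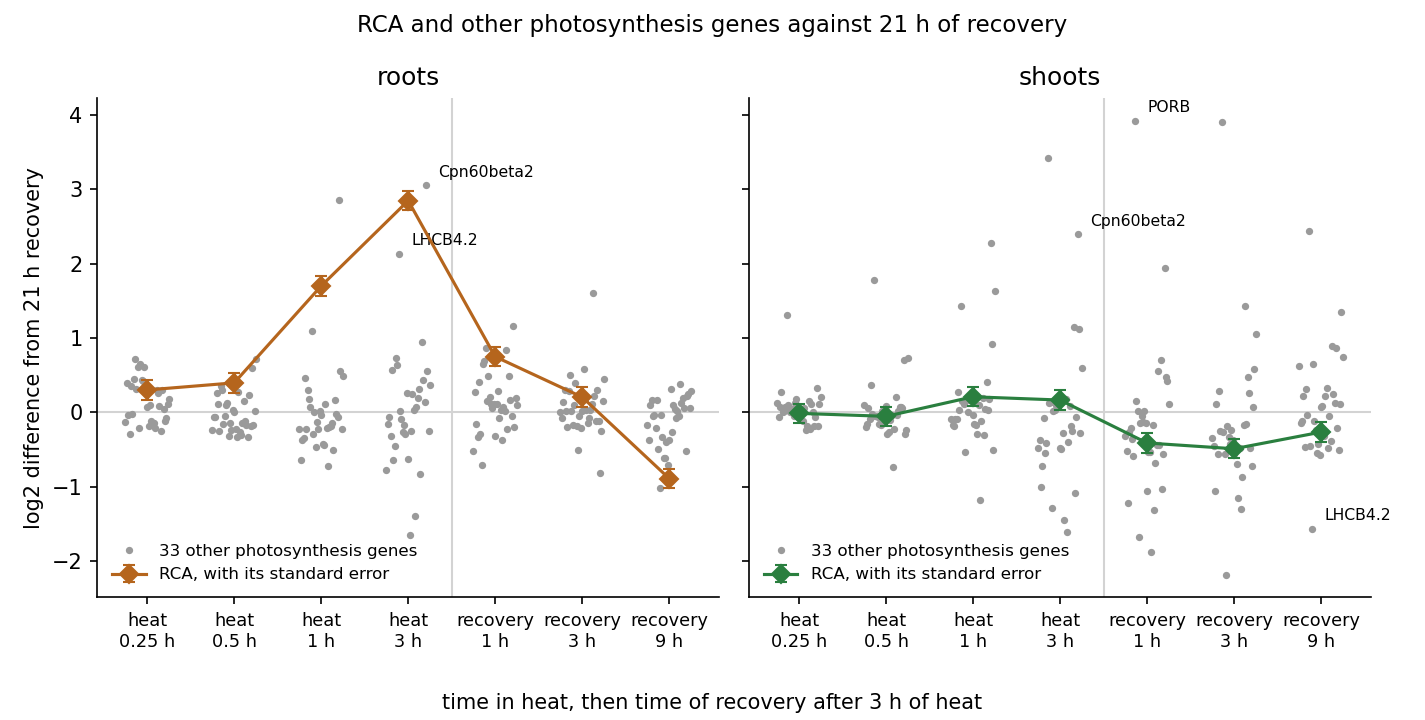
Log2 difference from 21 h of recovery at each earlier time, for roots (left) and shoots (right). Diamonds are RCA with its standard error, and grey points are the 33 other photosynthesis genes with a named probe set; in roots at 3 h of heat RCA is at 2.85, below Cpn60beta2 at 3.05 and above LHCB4.2 at 2.13.

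In shoots, where RCA changed little, more of the 33 photosynthesis genes passed. At 1 h of heat 3 rose and 1 fell, where 3.44% of all probe sets rose and 4.14% fell. At 3 h of heat 4 rose and 5 fell (7.13% and 9.15% of all probe sets), and at 1 h of recovery 2 rose and 6 fell (5.72% and 4.69%). Cpn60beta2, which rose in heated roots, also rose in shoots, by 2.40 ± 0.11 after 3 h of heat. PORB, a light-dependent enzyme of chlorophyll synthesis, rose by 3.43 ± 0.17 in shoots at 3 h of heat and by 3.92 ± 0.17 at 1 h of recovery. Among the genes that fell in shoots at 3 h of heat were LHCB4.3 (−1.29 ± 0.17), LrgB, a chloroplast carrier of photorespiration (−1.45 ± 0.12), SBPASE (−1.01 ± 0.18) and AT5G28500 of the Rubisco assembly list (−1.09 ± 0.21). The 5 photosystem and ATP synthase genes passed at none of these times in shoots, which is also how RCA behaved there.

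A difference between tissues was tested for the same genes. At 3 h of heat the change in roots exceeded that in shoots for 4 of 33 genes and was below it for 2, where 6.18% and 6.88% of all probe sets received these calls. The 4 were LHCB4.2 (1.997 ± 0.28, adjusted p = 5.22e-06), beside 2.68 ± 0.18 for RCA, and LrgB, AT5G28500 and LHCB4.3. LHCB4.2 also rose in roots, while the other 3 had fallen in shoots and passed in neither direction in roots. Those 3 were above the 40th percentile on neither root array at 21 h of recovery, so their root change was not measured and no size is given. PORB went the other way. Its mean signal in shoots was 1771 at 3 h of heat and 157 at 21 h of recovery. In roots it was 44.0 and 22.5 at those times, the latter below the 40th percentile. The ratio of its root shares at those times ranked 39th of the 39 genes listed and measured. At 1 h of recovery 4 of 33 were called above and 1 below, where 5.18% and 7.25% of all probe sets were. The 4 were AT5G28500, SBPASE, LrgB and LHCB4.3, which had all fallen in shoots and were dim in roots.

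Regulators through which light and the clock are known to act were listed as well, but 1 of 13 clock genes and 1 of 10 greening regulators had a named probe set. GI, a clock gene, had means of 383 at 3 h of heat, 434 at 1 h of recovery, 340.0 at 3 h, 52.6 at 9 h and 153 at 21 h of recovery in roots. Its differences from 21 h of recovery were 1.27 at 3 h of heat (adjusted p = 6.27e-10), 1.44 at 1 h of recovery (2.61e-10) and −1.37 at 9 h (2.01e-09), each ± 0.11, so GI, like RCA, was low in roots at 9 h of recovery. The highest GI mean was at 1 h of recovery, but it was not separated from that at 3 h of heat (0.17 ± 0.11, adjusted p = 0.202). HYH, a light-signalling transcription factor, had a mean of 53.7 in roots at 3 h of heat and 109.9 at 21 h of recovery, and fell by 1.18 at 0.5 h of heat (adjusted p = 1.61e-05), with its lowest mean, 19.4, at 1 h of recovery. It was also called fallen at 1 and 3 h of recovery (4.55e-10 and 3.72e-08), but it exceeded the 40th percentile on 0 and 1 of the 2 arrays there, so no size is given. None of the 8 listed plastid heat chaperones had a named probe set, and they were not analysed here.

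The genes whose course was most like that of RCA were picked by Pearson correlation of group means, among named genes whose means spanned at least 1 on the log2 scale. Over the 8 root means, 2885 genes qualified, and the 8 highest were AT1G74530 (r = 0.990), AT2G39420 (0.986), AT1G28070 (0.977), AT1G75560 (0.977), AT1G74490 (0.972), AT1G21010 (0.964), AT2G23780 (0.961) and AT3G19680 (0.960). They had their highest root mean at 3 h of heat and their lowest at 9 h of recovery, as RCA did. Their span over the root means was 1.01 to 2.46, against 3.74 for RCA. In shoots, where RCA changed little, some courses parted from it: AT2G23780 had 347 at 3 h of heat and 111 at 21 h of recovery in shoots, and AT3G19680 had 335 and 58.5. AT1G74490 had shoot means of 1.60 to 14.0, below the 40th percentile of every shoot array, so its course there was not measured. None of these 8 was a member of the photosynthesis lists.

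**Figure D4:**
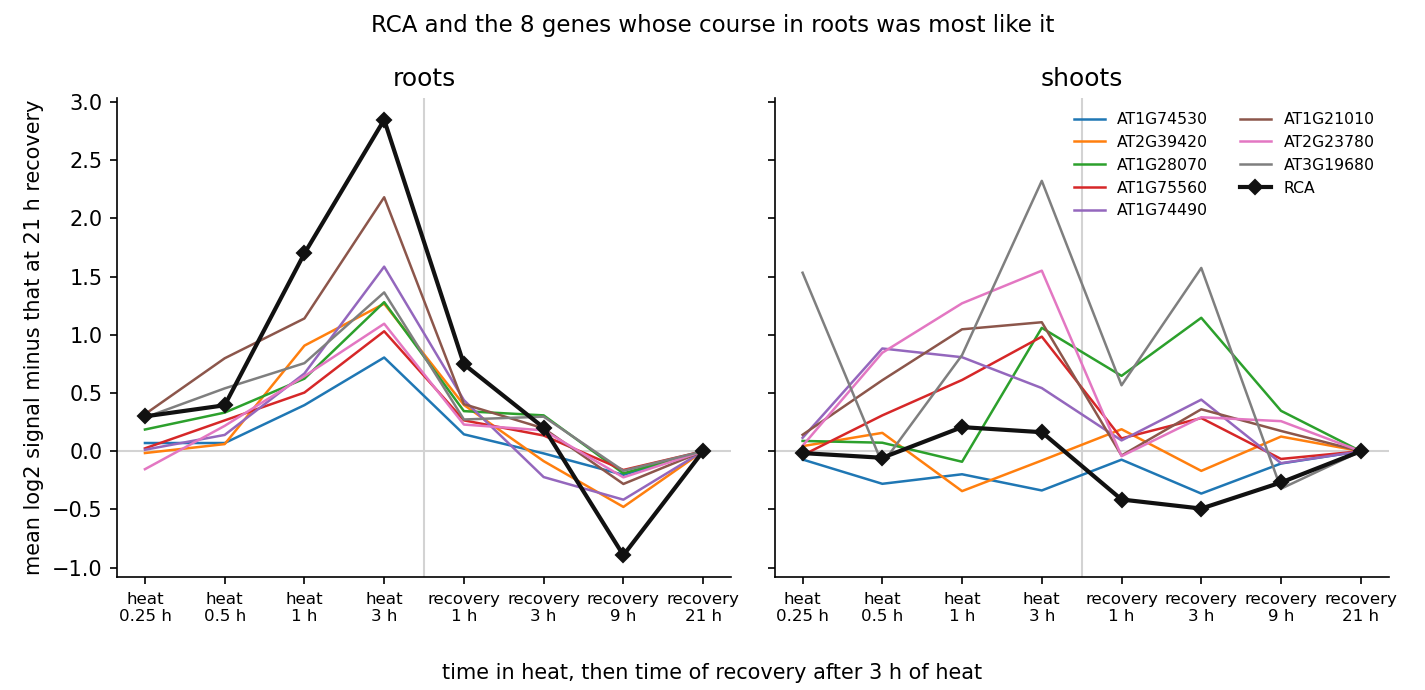
Mean log2 signal minus that at 21 h of recovery, for RCA (black diamonds) and the 8 genes with the most similar course in roots (coloured lines), in roots (left) and shoots (right). All 9 peak at 3 h of heat in roots, RCA at 2.85, and they spread apart in shoots, where AT1G74490 was too dim for its course to be read.

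Over the 8 shoot means, 3601 genes qualified, and the closest were AT3G62930 (r = 0.967), TROL (0.962), which encodes a thylakoid protein that binds ferredoxin-NADP reductase, and AT4G02920 (0.961). TROL, picked for its likeness to these means, had 1467 at 1 h of heat and 689 at 3 h of recovery in shoots, where the RCA means were also highest and lowest. RCA spanned only 0.70 over the shoot means. Its steps from 1 to 3 h of heat and from 1 to 3 h of recovery had adjusted p-values of 0.835 and 0.685 (limma), so these points were not separated from their neighbours. Over all 16 means the gap between tissues dominates. The closest were LHCB4.2 (r = 0.988), the plastid gene psaJ for a photosystem I subunit (0.983), AT2G43560 (0.982) and AOR (0.979). The plastid gene petB for cytochrome b6 (0.978) was also among the 8. All 8, picked for this likeness, had higher root means at 3 h of heat than at 21 h of recovery. In roots AOR had 139 against 33.0 and AT2G43560 had 150 against 38.7 at those times. The plastid genes psaJ and petB had 566 against 162 and 1275 against 491. These correlations are across means from the same arrays and are given as descriptions.

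By the order of genes in the TAIR10.1 annotation, the gene before RCA is AT2G39725 and the gene after it is HESO1. AT2G39725 had mean signals of 37.3, 41.9, 53.1 and 71.5 through the heat in roots, and 77.2, 52.3, 82.2 and 55.2 at 1, 3, 9 and 21 h of recovery. Its highest root mean was at 9 h of recovery, where that of RCA was lowest, but the arrays there, 95.3 and 69.1, overlapped those at 1 h of recovery, 81.4 and 73.1. HESO1 had no named probe set and was not analysed here.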

How the data were processed

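RNA from shoots and roots was hybridised to 32 ATH1 arrays, 1 colour and 1 array per sample, in 16 groups of 2 taken from the sample titles. The deposited intensity values were made by the authors with MAS5, per the submitters' processing notes, and its version is not given in the sources used here. On each array the 2% trimmed mean was 100.0, as read from the values, and no further normalization was made.

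Of 22810 probe sets, 64 controls were left out. Of the other 22746, 13513 had 1 named gene, 503 several and 8730 none, and only those with 1 were named. Signals were analysed as log2(signal + 10.7), the constant being the median of the arrays' 25th percentiles, a scale that understates changes of dim genes. Probe sets that exceeded the 40th percentile of the array on each of a group's 2 arrays were kept (16782). A model with 16 group means was fitted with limma 3.58.1 in R 4.3.3 (eBayes with trend, 16 residual degrees of freedom), with Benjamini-Hochberg adjustment over all kept probe sets within each of 44 contrasts. A call needed an adjusted p below 0.05 and a log2 difference of at least 1 in size. The script was tested on simulated data.

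RCA, the gene lists and the tests were chosen with earlier results of these data known. Named genes were RCA, list members with 1 named probe set, and the 8 genes most correlated with RCA in roots, in shoots and in both. Where a gene had several probe sets, the brightest was used. Alternatives were quantile normalization, 75th percentile scaling, a constant 4 times larger or 4 times smaller, no filter, no trend, a replicate block, leaving out each array and a call on adjusted p alone. Tables and figures used Python 3.11.15, pandas 2.3.3, numpy 2.4.6 and matplotlib 3.10.9.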

Additional observations from a re-analysis of the deposited data

Results flagged for a closer look

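The change of RCA relative to 21 h of recovery differed between roots and shoots at 3 recovery times, by the interaction test in limma with Benjamini-Hochberg adjustment over all probe sets. At 1 h of recovery, roots minus shoots was 1.16 (adjusted p = 2.46e-05), from 0.75 in roots and −0.41 in shoots. At 3 h it was 0.69 (0.00626), from 0.20 in roots and −0.49 in shoots, and under quantile normalization it was 0.28 (0.230). At 9 h it was −0.62 (0.0187), from −0.89 in roots and −0.27 in shoots. With 2 arrays a group, single arrays far from the rest were not looked for.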

How the results depend on the processing

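Over 42 differences of RCA, 515 alternative values were computed, of which 459 kept direction and call, 5 lost a call, 10 gained one, 29 moved by more than the replicate spread among the differences given without a test, and 12 changed sign. Every sign change was in a difference of under 0.3 in size that had passed no test. Quantile normalization, under which the brightest probe sets of each array are set to common values, turned the sign in shoots of 0.5 h (0.049) and 3 h of heat (−0.021) and 9 h of recovery (0.10) over 21 h of recovery, 0.5 h over 0.25 h of heat (0.073), 1 h over 0.5 h of heat (−0.016) and 3 h over 1 h of recovery (0.11). It took the ratio of RCA signal at 3 h of heat to 9 h of recovery in roots to 18.7, that of 1 h of heat to 3 h of recovery in shoots to 1.11 (1.63 as deposited), and the interaction at 1 h of recovery to 0.97, below a call. Scaling to the 75th percentile gave ratios of 19.0 and 1.92 and kept all 16 places in the order of groups, where quantile normalization kept 8. Under both, roots were highest at 3 h of heat and lowest at 9 h of recovery.

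With a constant 4 times as large, RCA in roots stood at 1.39 and 2.45 after 1 and 3 h of heat, the fall between 3 and 9 h of recovery was −0.73 and the interaction at 1 h of recovery 0.99, both short of a call. With a constant 4 times smaller, 9 h over 21 h of recovery in roots passed at −1.03. On adjusted p alone, without the size rule, RCA would also be called in shoots at 1 h (−0.41) and 3 h (−0.49) over 21 h of recovery and at 1 h of recovery over 3 h of heat (−0.58), in roots at 1 h (0.75) and 9 h (−0.89) over 21 h and at 3 h over 1 h of recovery (−0.54), and in the interactions at 3 h (0.69) and 9 h (−0.62). Same-numbered arrays' deviations from group means correlated at −0.19 to 0.16 over 120 group pairs (3 above 0.1). Pairing of tissues at each time was not tested. A replicate block, with arrays of the same number as a block, changed no RCA call and no photosynthesis count; the fall between 3 and 9 h of recovery in roots stayed at −1.095 and the interaction at 1 h of recovery at 1.16.

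Leaving out 1 array at a time gave −0.14 to 0.11 and −0.18 to 0.072 for 0.25 and 0.5 h of heat over 21 h of recovery in shoots, −0.14 to 0.057 for 0.5 h over 0.25 h and −0.18 to 0.10 for 3 h over 1 h of heat in shoots, and −0.048 to 0.24 for 0.5 h over 0.25 h of heat in roots. In roots, 9 h over 21 h of recovery ranged from −1.06 to −0.73, passing without replicate 2 of 21 h, and 9 h over 3 h of recovery from −1.21 to −0.98, not passing without replicate 1 of 3 h. The interaction at 1 h of recovery ranged from 0.996 to 1.33, the lower value with replicate 2 of the 21 h root group left out. Of photosynthesis genes, 1 to 2 rose in roots at 1 h of heat, where 1 was left without replicate 1 of that group or replicate 2 of 21 h of recovery. At 1 h of recovery 1 to 2 rose, 2 of them without replicate 1 of that group or of 21 h of recovery.

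The counts of photosynthesis genes were larger on adjusted p alone. In roots 5 rose and 7 fell at 1 h of heat, 7 rose and 7 fell at 3 h, and 8 rose and 3 fell at 1 h of recovery. In shoots 5 rose and 3 fell at 1 h of heat, 13 fell at 3 h, and 6 rose and 15 fell at 1 h of recovery. With the larger constant 1 rose in roots at 1 h of heat, with the smaller one 2 rose in roots at 1 h of recovery, and under quantile normalization 3 fell in shoots at 1 h of recovery. Over all probe sets the larger constant lowered many counts by over 1.5 times. In roots it gave 395 against 603 risen and 100 against 377 fallen at 1 h of heat (250 fallen with 75th percentile scaling, 639 with the smaller constant) and 749 against 1715 fallen at 3 h. In roots at recovery it gave 269 against 451 risen and 284 against 609 fallen at 1 h, 146 against 304 risen at 3 h, 75 against 159 fallen at 9 h and 144 against 368 fallen between 3 and 9 h. In shoots it gave 284 against 695 fallen at 1 h of heat, 765 against 1196 risen and 751 against 1535 fallen at 3 h, and 477 against 960 risen and 476 against 787 fallen at 1 h of recovery. Of the 8 genes most like RCA, Spearman correlation shared 4 in roots, 1 in shoots and 1 in both tissues, and single arrays 4, 6 and 6.

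With 2 arrays a group, the 95% interval reached 0.27 to either side of an RCA difference between 2 groups, and 0.38 for the interactions. Smaller differences therefore had intervals that included 0. The differences of RCA among shoot groups depended on the normalization, for a cause that was not tested. Few genes of the photosynthesis lists had a named probe set.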
